A study of Mus musculus with 5 samples.

Results

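Genes expressed in the oocyte were measured in preparations of granulosa cells, the somatic cells that line the ovarian follicle, from mouse ovaries. The set was a list of 33 gene symbols taken for their known expression in oocytes. Of these, 30 had a probe set annotated to that gene alone and entered the analysis, out of 18194 genes with such a probe set. H1foo is listed under its current symbol H1f8. Npm2, Oas1d and E330017A01Rik had no probe set annotated to them alone and have no value of their own here.

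Each of the 5 groups was 1 Affymetrix array, with no replicates. All animals were primed for 48 h with eCG, a gonadotropin that makes follicles grow, before receiving hCG, a hormone that acts like the ovulatory surge of luteinizing hormone. Wild-type granulosa cells were collected 8 h and 24 h after hCG. Cells of the knockout, CEBPα/β fl/fl fl/fl with Cyp19-cre, were collected 4 h, 8 h and 24 h after hCG. The knockout carried floxed alleles of both C/EBP genes, and its Cre recombinase was driven by Cyp19, the aromatase gene, whose ovarian expression lies in granulosa cells. The labels name no Cre in wild type. Animals were 23 days old at 4 h and 8 h and 24 days old at 24 h, and the labels do not say how many were pooled for an array. The series asked, by its title, which processes of ovulation and luteinization need C/EBPα and C/EBPβ, the transcription factors removed in the knockout.

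An oocyte grows inside its follicle, joined to cumulus cells, which are the granulosa cells nearest to it. It builds a glycoprotein coat called the zona pellucida, secretes growth factors that act on granulosa cells, and stores maternal messages that are used at meiotic maturation and after fertilization. At ovulation the oocyte leaves the ovary with its cumulus cells, while the remaining granulosa cells of that follicle turn into luteal cells. Smaller follicles that do not ovulate keep their oocytes.

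Several oocyte genes are known targets of FIGLA, a basic helix-loop-helix factor that binds E-box letters, CANNTG. Promoter windows of 300 bases (250 before and 50 after the start, RefSeq, GRCm38.p6, the first listed per gene) were available for 24 of the 33 genes. CANNTG, read on both strands, stood in 22 of the 24 windows, or 91.7%, and in 72.1% of 27025 promoter windows of all genes. The form CACCTG, or CAGGTG on the other strand, which is one of the CANNTG forms, stood in 13 of 24, or 54.2%, against 20.0% of all windows. Other E-box forms were CACGTG in 4 (7.24% of all windows) and CAGCTG in 6 (16.1%). TAATTG, a form of the NOBOX element, stood in 3 of 24 windows, against 8.15% of all, and TAATTA in 2, against 5.31%. TGATTG, letters bound by LHX8, stood in 5, against 14.4%. These are matches of letters and not shown to be binding sites. The 250 bases before the start are printed for 5 genes to which the results return, namely Zp3 of the zona, 3 genes near each other on chromosome 9 that lay farthest above wild type at 24 h, and Rfpl4, which differed the other way. They lie at chr5:135979855-135980104 (Zp3, plus strand), chr9:78378589-78378838 (Ooep, minus), chr9:78314049-78314298 (Omt2a, minus), chr9:78327780-78328029 (Omt2b, plus) and chr7:5116912-5117161 (Rfpl4, minus). Capitals mark CACCTG or CAGGTG, of which there was 1 in Zp3, 3 in Omt2a and 1 in Rfpl4, and which was not in these windows of Ooep and Omt2b. Other CANNTG forms are left in lower case. Counting all forms, CANNTG stood 3 times in Zp3, 1 in Ooep, 3 in Omt2a, 2 in Omt2b and 2 in Rfpl4.
Zp3: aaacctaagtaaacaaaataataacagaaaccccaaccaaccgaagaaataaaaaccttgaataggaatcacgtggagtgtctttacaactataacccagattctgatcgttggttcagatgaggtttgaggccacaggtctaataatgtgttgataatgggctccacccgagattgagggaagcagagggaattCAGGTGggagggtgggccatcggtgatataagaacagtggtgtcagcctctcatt
Ooep: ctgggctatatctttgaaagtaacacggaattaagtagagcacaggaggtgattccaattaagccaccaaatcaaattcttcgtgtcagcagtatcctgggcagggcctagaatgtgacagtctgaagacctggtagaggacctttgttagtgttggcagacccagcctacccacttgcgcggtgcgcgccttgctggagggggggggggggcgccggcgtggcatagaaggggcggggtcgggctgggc
Omt2a: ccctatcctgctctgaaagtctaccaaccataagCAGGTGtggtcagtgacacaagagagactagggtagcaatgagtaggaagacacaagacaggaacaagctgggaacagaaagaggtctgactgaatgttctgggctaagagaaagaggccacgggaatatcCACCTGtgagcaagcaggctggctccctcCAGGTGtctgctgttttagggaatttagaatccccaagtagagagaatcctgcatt
Omt2b: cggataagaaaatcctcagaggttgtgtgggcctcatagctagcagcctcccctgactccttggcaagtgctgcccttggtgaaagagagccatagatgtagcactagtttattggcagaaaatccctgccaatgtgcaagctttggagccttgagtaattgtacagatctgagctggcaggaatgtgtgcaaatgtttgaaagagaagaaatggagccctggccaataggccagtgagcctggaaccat
Rfpl4: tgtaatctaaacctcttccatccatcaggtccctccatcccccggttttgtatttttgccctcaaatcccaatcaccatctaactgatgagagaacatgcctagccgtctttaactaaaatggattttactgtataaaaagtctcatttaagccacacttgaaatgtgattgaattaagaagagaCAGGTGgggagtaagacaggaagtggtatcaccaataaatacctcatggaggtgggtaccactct

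Intensities below are the deposited values on a linear scale. A value was read as above background at or above a floor of 22, the 40th percentile of all values. With 1 array per group a single comparison has no test and no p-value. A gene passed a size rule where the higher of 2 intensities reached the floor and was 2-fold the lower or more (1 on the log2 scale). The spread between different probe sets of 1 gene, which is technical only, had an SD per probe set of 0.26 on the log2 scale for the genotype difference at 8 h, 0.39 at 24 h, 0.31 for the time change in wild type and 0.37 in the knockout. Intensities of different genes are not ranked against each other, because each probe set responds differently. Sums of intensity over genes are also given, and the brightest probe sets weigh most in them.

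The arrays of 8 h and 24 h shared nearly the same distribution, with medians of 31 or 32. The knockout array at 4 h stood apart, with a median of 54, and correlated with the others at r = 0.86 to 0.91 over 15327 genes, against 0.94 to 0.98 among the other 4 (across genes, which are not independent replicates). Its ratio of the 3′ to the 5′ control probe set was 3.86 for Gapdh, against 0.97 to 1.05 on the others. It has no wild-type partner and enters none of the 4 main comparisons. Cebpa was 685 in wild-type and 19 in knockout cells at 8 h, and 352 against 38 at 24 h. Cebpb was 7436 against 1127 at 8 h, and 3976 against 85 at 24 h. All 10 granulosa markers with a value were above the floor on every array.

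Most oocyte genes were at or above the floor on every array. Of the 30, 29 were so on the wild-type array at 8 h and 27 on the knockout at 8 h. At 24 h 28 were so in wild type and 27 in the knockout, and 26 were so on all 5 arrays. Among all 18194 genes, 12924 reached the floor on at least 1 of the arrays at 8 h, and 13052 at 24 h. The floor is a rank among all values and not a measured background. Their summed intensity was 12799 (wild type) and 12150 (knockout) at 8 h, and 9601 (wild type) and 12074 (knockout) at 24 h, which was 0.16%, 0.15%, 0.12% and 0.15% of the sum over all genes. The wild-type array at 24 h was thus the lowest, and the other 3 lay close together. That array was also the lowest of the 4 for 21 of the 30 genes one by one. The share of all genes lowest on it was not counted. Genes on 1 array share its RNA, so this count is not separate from the sum. In such bulk samples, fewer cells of a type and less RNA per cell cannot be told apart.

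**Figure D1:**
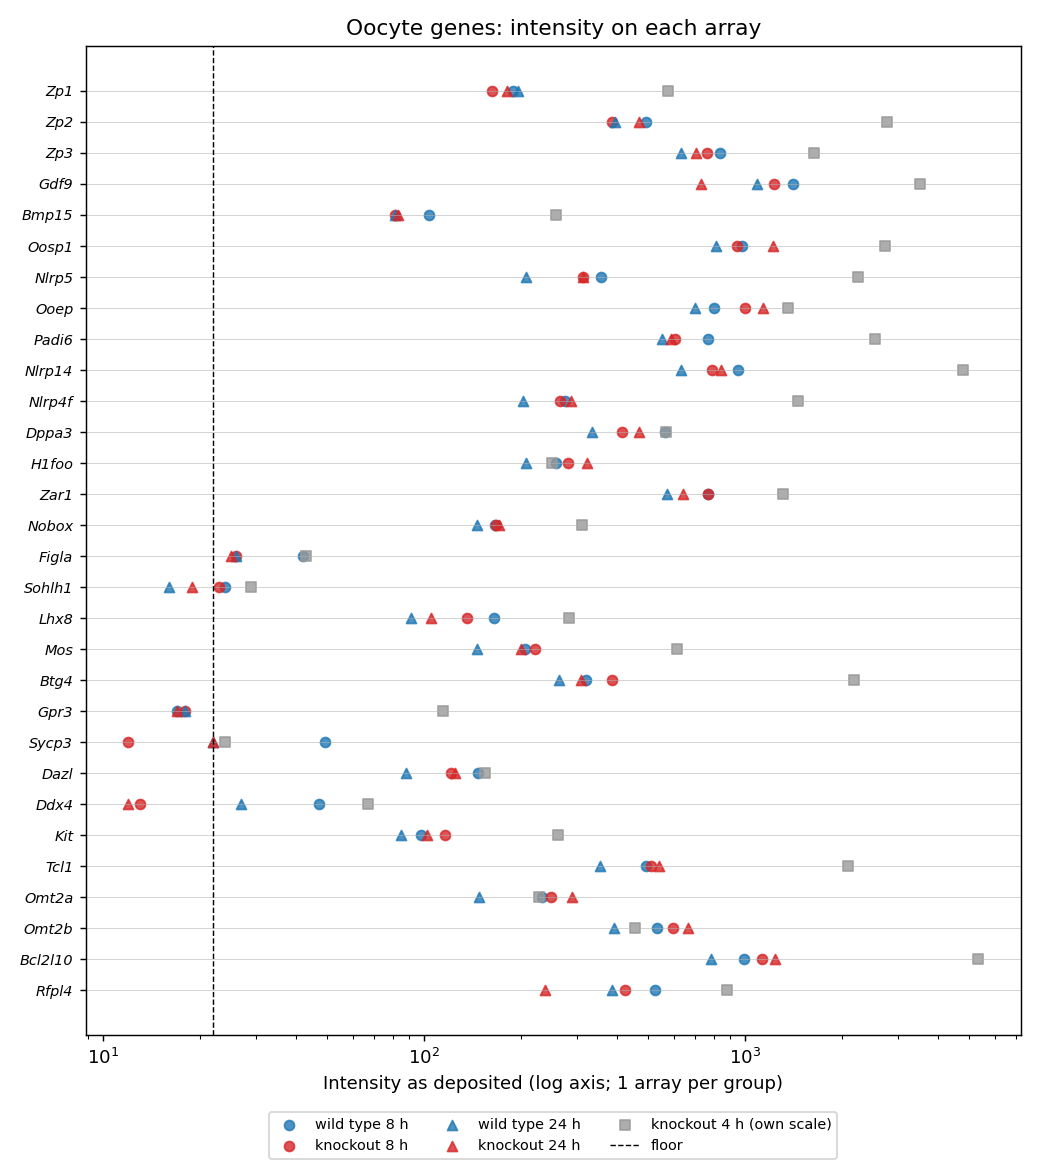
Intensity of 30 oocyte genes (rows) on each of 5 arrays, as deposited, on a log axis, with 1 point per array and the floor of 22 dashed. Blue triangles, the wild-type array at 24 h, lie farthest left of the coloured points in 21 rows, and the grey squares of the knockout at 4 h, on a scale of its own, lie farthest right in 26.

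The zona pellucida genes encode the 3 glycoproteins of the mouse egg coat. Zp1 was 189 in wild-type and 163 in knockout cells at 8 h, and 196 and 181 at 24 h. Zp2 was 493 and 386 at 8 h, and 395 and 468 at 24 h. Zp3, which encodes the main partner of ZP2 in the filaments of the coat, was 835 and 761 at 8 h, and 634 and 704 at 24 h. All 3 lay below wild type at 8 h, by 0.13 to 0.35 on the log2 scale, and none passed the size rule at either time. At 24 h the differences ran from -0.11 for Zp1 to 0.24 for Zp2, less than the spread between probe sets.

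Among secreted factors, Gdf9 encodes a growth factor by which the oocyte acts on cumulus cells. It was 1408 in wild-type and 1229 in knockout cells at 8 h, and 1087 and 732 at 24 h. Its lowest array was therefore the knockout at 24 h, a log2 difference from wild type of -0.57, where most other genes of the set lay above wild type. Bmp15, which encodes the related partner of GDF9, was 104 and 81 at 8 h, and 81 and 83 at 24 h. Its 3 probe sets disagreed, since a second one read 37 and 31 at 8 h and 43 and 23 at 24 h, so that the difference at 24 h was 0.04 by the first and -0.90 by the second, and another was at 12 to 25. Oosp1, an oocyte-secreted protein, was 977 and 948 at 8 h, and 815 and 1227 at 24 h, with the knockout at 24 h the highest of the 4.

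The subcortical maternal complex is a store of maternal proteins under the egg membrane that early embryos need. Nlrp5, a member also called Mater, was 356 in wild-type and 312 in knockout cells at 8 h, and 208 and 314 at 24 h. Ooep, another member, was 799 and 1001 at 8 h, and 699 and 1138 at 24 h, higher in the knockout on both pairs of arrays. Padi6, needed for the cytoplasmic lattices of the egg, was 769 and 605 at 8 h, and 551 and 587 at 24 h. Of the related NLR genes, Nlrp14 was 950 and 789, then 632 and 843, and Nlrp4f was 275 and 266, then 203 and 288. At 24 h all 5 lay above wild type, by 0.09 to 0.70, and at 8 h 4 of the 5 lay below it. None passed the rule.

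Maternal messages of chromatin and the egg-to-embryo transition showed the same order at 24 h. Dppa3, whose protein protects maternal methylation in the zygote, was 563 in wild-type and 413 in knockout cells at 8 h, and 334 and 466 at 24 h. The genotype difference thus changed from -0.45 to 0.48. H1foo, the oocyte linker histone, was 257 and 281, then 208 and 321. Zar1, a maternal-effect gene, was 768 and 765, then 570 and 643. The wild-type array at 24 h was the lowest of the 4 for all 3.

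Among the oocyte transcription factors, Nobox, a homeobox factor needed for early follicle growth, was 167 and 168 at 8 h, and 146 and 171 at 24 h. Lhx8, a LIM homeobox factor, was 165 and 136, then 91 and 105, lower at 24 h in both genotypes. Figla was 42 in wild type at 8 h and 25 or 26 on the other 3 arrays. Sohlh1, a helix-loop-helix factor of early follicles, was 24 and 23 at 8 h and under the floor at 24 h, at 16 and 19. No difference of these 4 passed the rule, and Figla and Sohlh1 lay too near the floor for an order.

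Of the meiotic genes, Mos encodes the kinase that holds the mature egg in metaphase. It was 206 and 221 at 8 h, and 146 and 201 at 24 h. Btg4, an adaptor for clearing maternal messages, was 320 and 385, then 263 and 309, with the knockout above wild type both times. Gpr3, the receptor that keeps cyclic AMP high in the arrested oocyte, was 17 or 18 on all 4 arrays, under the floor, and 115 only on the knockout array at 4 h. Sycp3, a protein of the synaptonemal complex of early meiosis, was 49 in wild-type and 12 in knockout cells at 8 h, at least 2.23-fold lower against the floor, and 22 in both at 24 h.

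The germline RNA-binding genes went different ways. Ddx4, the VASA helicase, was 47 in wild-type and 13 in knockout cells at 8 h, at least 2.14-fold lower, and 27 and 12 at 24 h, at least 1.23-fold lower. Both knockout values lay under the floor, and the wild-type value at 24 h only just above it. Dazl was 147 and 121 at 8 h, and 88 and 125 at 24 h, and its second probe set was 101 and 78, then 80 and 96, in the same order at both times. Kit, the receptor for kit ligand, is also made by theca and blood-forming cells. It was 98 and 116 at 8 h, and 85 and 102 at 24 h, and its second probe set was under the floor on these 4 arrays.

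Of the remaining genes, Omt2a was 234 in wild-type and 248 in knockout cells at 8 h, and 148 and 289 at 24 h, 1.95-fold higher and just short of the rule. Its neighbour Omt2b was 531 and 596, then 392 and 665, 1.70-fold higher at 24 h. In RefSeq no protein-coding gene lies between these 2 on chromosome 9, and 2 lie between Omt2b and Ooep, which was 1.63-fold higher. A probe set annotated to both Omt2a and Omt2b, which was not used, read 749 and 797, then 534 and 978, in the same order, so near-identical copies may share signal and these 2 genes are not independent. Bcl2l10, an oocyte-rich BCL2 family gene, was 994 and 1132, then 782 and 1240, and Tcl1, an AKT co-activator also known from lymphoid cells, was 491 and 511, then 354 and 538. Rfpl4, a RING-finger-like oocyte gene, was 524 and 424 at 8 h, and 384 and 239 at 24 h, 1.61-fold lower in the knockout at 24 h. With Gdf9 it formed the exception among genes of good signal, as both were lowest on the knockout array at 24 h.

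At 8 h the oocyte genes lay close to wild type in the knockout. The 29 genes above the floor had a median log2 difference, knockout minus wild type, of -0.13, with 19 below and 10 above 0, and their summed intensity differed by -0.08. Over all 12924 genes above the floor the median was -0.01, and 50.7% lay below 0. Of the 29, 2 passed the rule as lower, namely Sycp3 and Ddx4, and none as higher. Across all genes 4.05% were lower and 1.58% higher by that rule, or 5.63% in either direction, so the count of 2 in 29 is near this background. Both have knockout values under the floor. The 26 genes at or above the floor on all 5 arrays therefore leave both out, and none of those 26 passed. At a 1.5-fold threshold Figla joined them as lower, where the background was 8.39%, and none was higher, where it was 4.83%. On the same pair of arrays 10 granulosa markers had a median of -0.01 and 8 surface epithelial markers 0.22. Only 3 erythroid markers were above the floor, with a median of -0.20 and values from -1.26 to 0.33. The 7 theca and 12 leukocyte markers above the floor had medians of -0.59 and -0.67. Endothelial and stromal markers differed by more. All 12 endothelial markers were lower in the knockout, with a median of -1.72 and summed intensities of 684 against 2285. All 12 markers of stroma and smooth muscle were lower, with a median of -2.26 and sums of 6304 against 28653. Their part in the oocyte values was not tested.

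At 24 h the oocyte genes lay mostly above wild type in the knockout. The 28 above the floor had a median log2 difference of 0.25, with 22 above 0, 5 below and 1 equal, and a ratio of summed intensities of 0.33 on the log2 scale. Among all 13052 genes the median was 0.05 and 54.5% lay above 0. None passed the 2-fold rule as higher, where the background was 3.13%, and 1, Ddx4, passed as lower, where it was 3.92% (7.04% in either direction). At a 1.5-fold threshold 8 of 28 were higher, where the background was 11.6%, and 2 were lower, Rfpl4 and Ddx4, where it was 10.3%. The 8 were Omt2a, Omt2b, Ooep, Bcl2l10, H1foo, Tcl1, Nlrp5 and Oosp1. Granulosa markers had a median of 0.46 on the same arrays, with 8 of 10 above 0 and none past the rule. Their summed intensity differed by 0.05. Cyp11a1 weighed heavily in that sum, at 19408 of 56657 in wild type, and was lower in the knockout, at 12292. Endothelial and stromal markers had medians of -0.82 and -0.55. The part of these in the oocyte values was not tested.

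**Figure D2:**
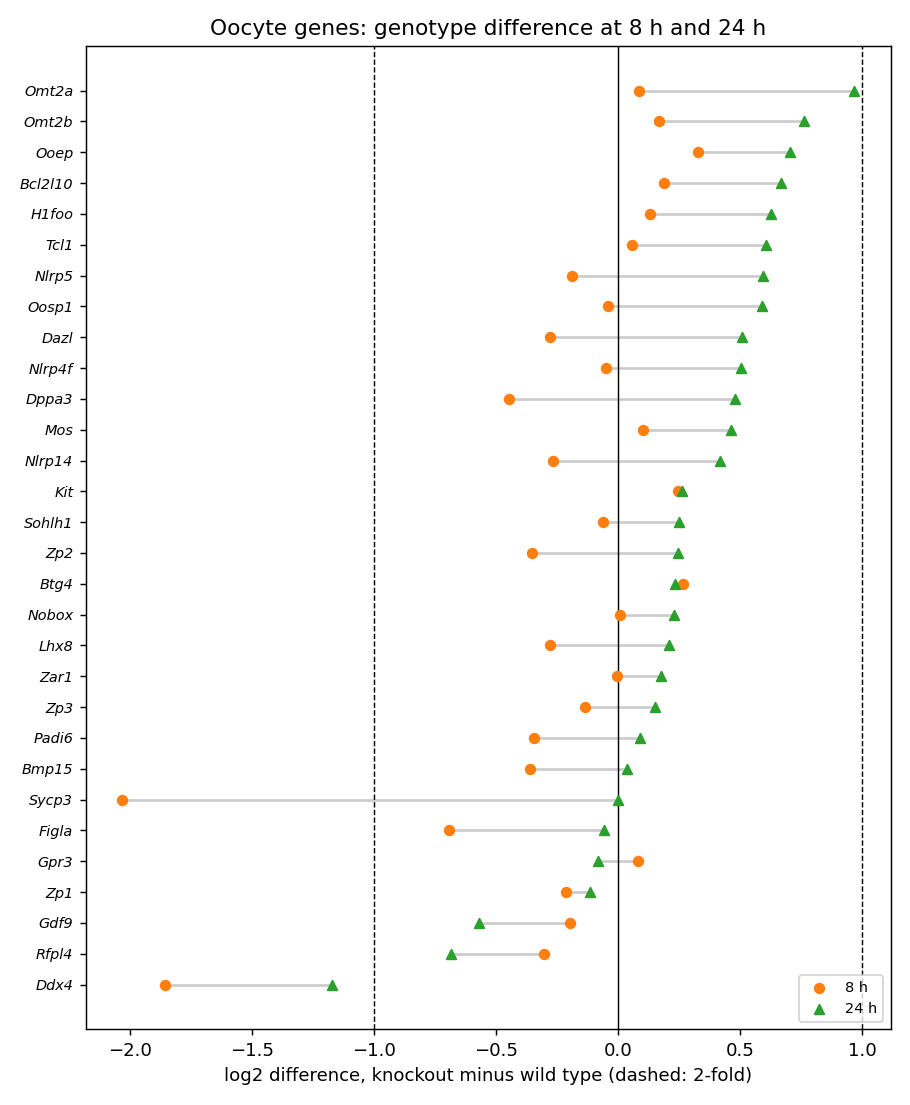
Log2 difference, knockout minus wild type, at 8 h (orange circles) and 24 h (green triangles) for 30 oocyte genes, 1 array per group, sorted by the value at 24 h, with 2-fold dashed. The green triangles reach 0.97 for Omt2a without crossing the dashed line, and the points beyond it on the left are Sycp3 at 8 h and Ddx4 at both times.

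From 8 h to 24 h in wild type, oocyte genes lay lower with little spread between genes. The 29 above the floor had a median change of -0.44, with 28 below 0, and quartiles of -0.66 and -0.32. All 13054 genes had a median of 0, with 49.1% below 0 and quartiles of -0.33 and 0.33. In single genes, Nlrp5 went from 356 to 208, Dppa3 from 563 to 334 and Lhx8 from 165 to 91, while Zp1 stood at 189 and 196. Only Sycp3 passed the 2-fold rule as lower, at 2.23-fold, against 6.45% of all genes, and none passed as higher, against 5.55%. At 1.5-fold, 10 of 29 were lower, where the background was 14.1%, and none was higher, where it was 13.7%. The set as a whole thus shifted by less than 2-fold. This change and the genotype difference at 24 h share the wild-type array at 24 h, so they are not separate evidence.

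In the knockout, the same interval brought no common shift. The 28 genes above the floor had a median change of 0.04, with 17 above 0, and a summed ratio of -0.01 on the log2 scale. Among all 12999 genes the median was 0.07 and 56.0% lay above 0. None of the 28 passed the 2-fold rule, with 6.85% of all genes higher and 5.26% lower. At 1.5-fold, 1 was higher, where the background was 16.6%, and 2 were lower, where it was 11.4%. The genes farthest from 0 with good signal were Gdf9, at 1229 and then 732, and Rfpl4, at 424 and then 239. Oosp1 went from 948 to 1227. In all, 16 of the 30 genes lay lower at 24 h than at 8 h in wild type but higher in the knockout, and 12 were lower in both. These counts include values under the floor, and their shares over all genes were not counted. In the knockout alone, 60.7% of the oocyte genes above the floor lay above 0, near the 56.0% of all genes. The difference between the genotypes in the change from 8 h to 24 h was not tested, since each of its 4 values is 1 array.

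**Figure D3:**
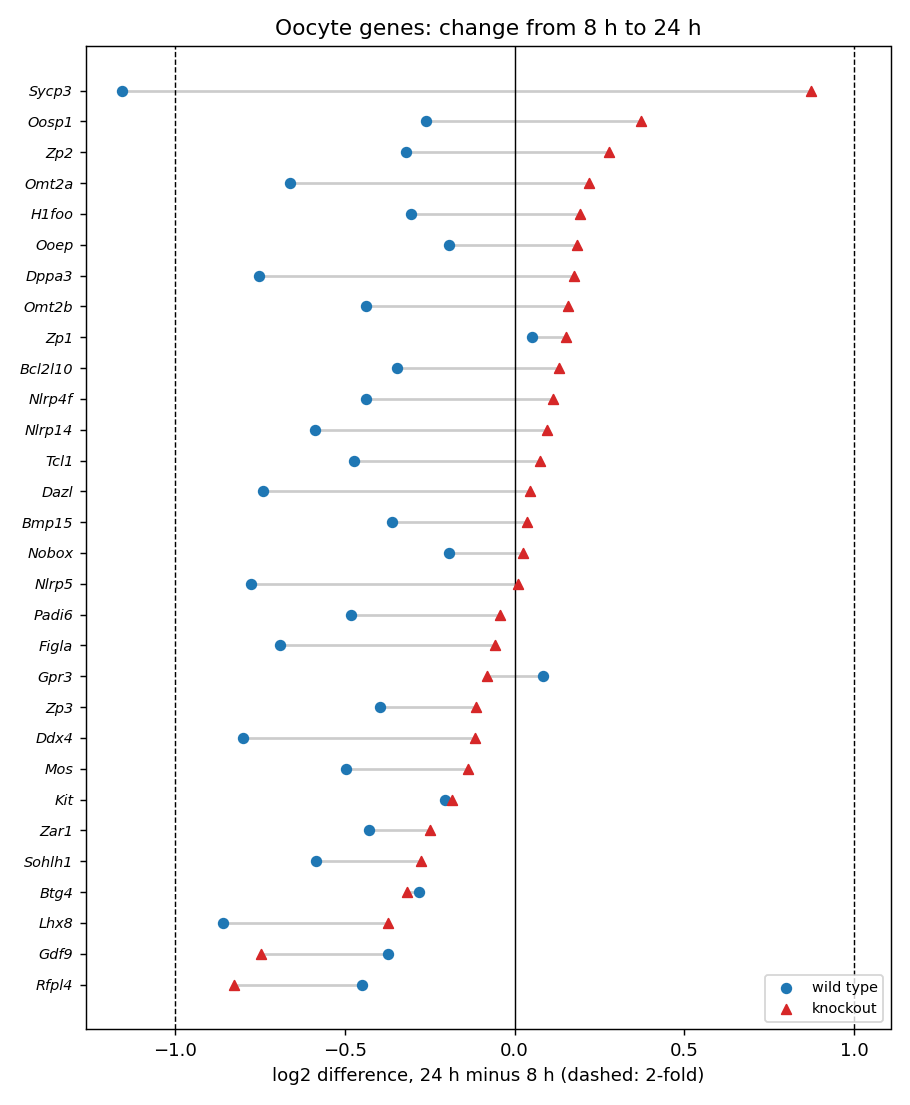
Log2 change from 8 h to 24 h in wild type (blue circles) and knockout (red triangles) for 30 oocyte genes, 1 array per group, sorted by the knockout value, with 2-fold dashed. Blue circles lie left of 0 in 28 rows, with Sycp3 beyond the dashed line, and red triangles lie on both sides of 0.

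**Figure D4:**
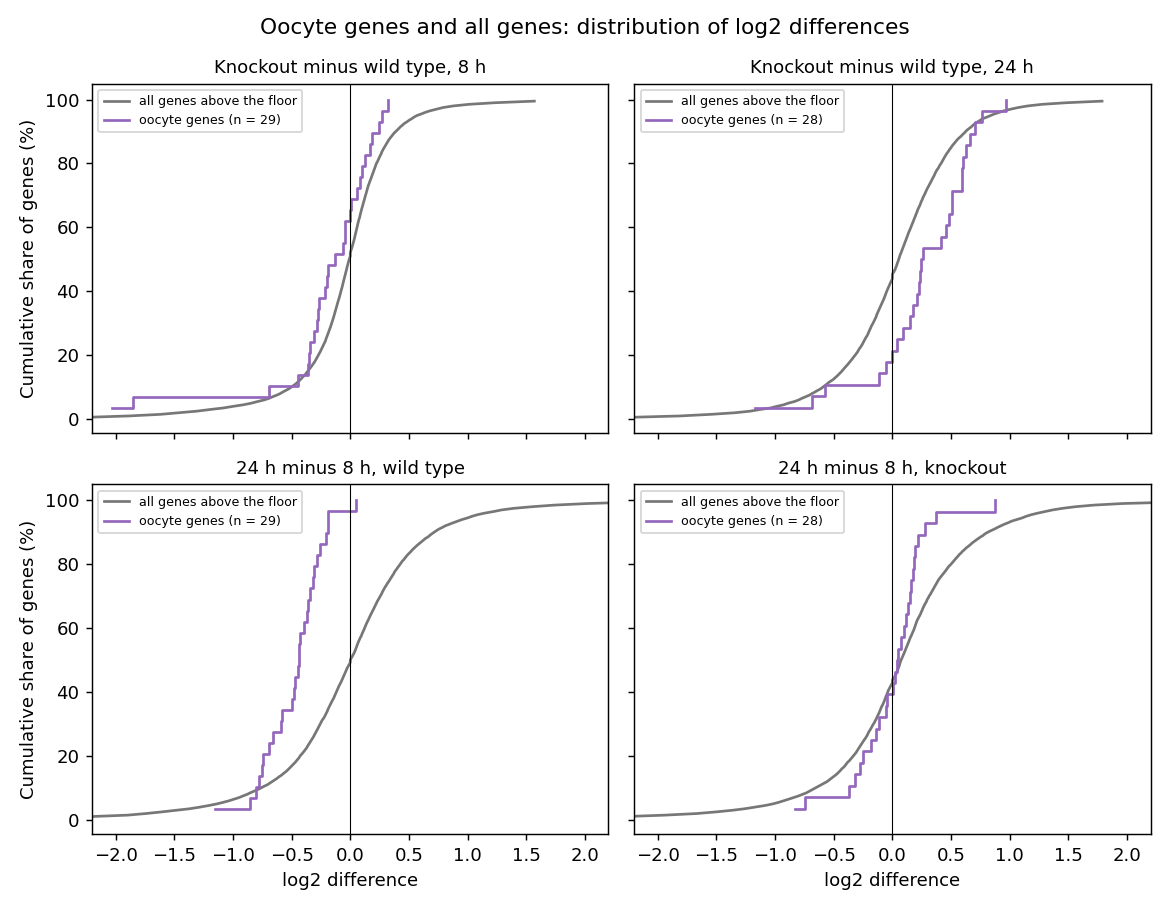
Cumulative share of genes against the log2 difference in the 4 comparisons, for oocyte genes (purple) and for all genes above the floor (grey). The purple line is left of the grey over most of its length in the wild-type time change (medians of -0.44 and 0) and right of it in the genotype difference at 24 h (0.25 and 0.05).

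The 4 arrays of 8 h and 24 h also allowed 1 fit over all genes, with genotype and time as terms, in which the only residual is their interaction and not replicate error. limma called 0 of 29 oocyte genes for the genotype effect averaged over both times, and 0 of 13316 genes, or 0%, at an adjusted p under 0.05. At an unadjusted p under 0.05 there were 2 oocyte genes and 1505 genes in all. The oocyte genes were Ddx4, at -1.51 (95% interval -2.21 to -0.81, limma adjusted p = 0.299, and 0.18 to 0.554 over the other settings) and lower in the knockout on both pairs, and Ooep, at 0.51 (0.03 to 0.995, limma adjusted p = 0.428, and 0.349 to 0.554 over the other settings) and higher on both pairs. For the time effect averaged over genotypes, limma called 0 of 29 oocyte genes and 321 of 13316 genes, or 2.41%. With an unadjusted p under 0.05 stood 3345 genes in all, and 3 of the 29 oocyte genes, all lower at 24 h in both genotypes. They were Rfpl4 (-0.64, limma adjusted p = 0.144, and 0.127 to 0.274 over the other settings), Gdf9 (-0.56, limma adjusted p = 0.153, and 0.139 to 0.285) and Lhx8 (-0.62, limma adjusted p = 0.187, and 0.142 to 0.314).

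A second list of 40 further oocyte genes, among them more NLR, Obox and subcortical complex genes, had values for 34. At 8 h its genotype difference had a median of 0.08 over 27 genes above the floor, with 15 above 0 and 12 below. The first set had a median of -0.13 at that time, and 47.6% of all genes lay above 0. In the genotype difference at 24 h the 26 genes of the second list above the floor had a median of 0.48, with 21 above 0. Over all genes the median was 0.05, and 54.5% lay above 0. Of the 26, 1 passed the rule as higher and none as lower, against 3.13% and 3.92% of all genes. Tle6, another member of the subcortical complex, was 574 and 585 at 8 h, and 646 and 1088 at 24 h. Genes past the rule were Nlrp4e, at 14 in wild-type and 29 in knockout cells at 24 h, and, as lower at 8 h, Khdc3 of the same complex, at 156 and 71, and Mael, at 24 and 12. These were 2 of 27, against 4.05% of all genes. From 8 h to 24 h the list had a median of -0.23 in wild type, with 20 of 26 below 0. All genes had a median of 0 there, with 49.1% below 0. Only Mael, at 24 and then 11, passed the rule, where 6.45% of all genes were lower. In the knockout the list had a median of 0.21, with 17 of 26 above 0, against 0.07 and 56.0% over all genes.

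Granulosa cells answer the oocyte through receptors for its factors, and supply kit ligand and junction proteins in return. Of 16 such genes, all above the floor, none passed the rule between genotypes at 8 h (5.63% of all genes in either direction) and 1 did at 24 h (7.04%), with medians of 0.12 and 0.24. That gene was Kitl, the ligand of Kit, at 940 and 1445 at 8 h, and 1281 and 3139 at 24 h, 2.45-fold higher in the knockout, although the mean of its 4 probe sets gave 0.31 on the log2 scale. Between 8 h and 24 h, 3 of the 16 rose and 1 fell in wild type, where 5.55% of all genes rose and 6.45% fell, and 3 rose in the knockout, where 6.85% did. Nppc, whose peptide keeps the oocyte in meiotic arrest, went from 79 to 263 in wild type and from 79 to 322 in the knockout. Slc38a3, an amino acid transporter of cumulus cells, went from 230 to 665 and from 254 to 631. In contrast, of the cumulus matrix genes made at ovulation, 9 of 10 above the floor fell in wild type, as did 8 of 9 in knockout cells (6.45% and 5.26% of all genes), with summed intensities going from 22701 to 4634 and from 22650 to 4526. The sums differed by -0.0032 and -0.034 on the log2 scale between genotypes at 8 h and 24 h. At 8 h Vcan alone was 12030 of the 22701 in wild type and 13654 of the 22650 in the knockout. By the rule, though, 3 of 10 genes were lower in knockout cells at 8 h and 2 of 8 at 24 h. The background was 4.05% and 3.92% of all genes. At 8 h the 3 were Ereg, at 1019 in wild-type and 443 in knockout cells, Has2 and Ptgs2. Has2 was 40 and 12, at least 1.82-fold lower against the floor. Ptgs2 was 865 and 409, a log2 difference of -1.08, but -0.47 by the mean of its 2 probe sets.

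**Figure D5:**
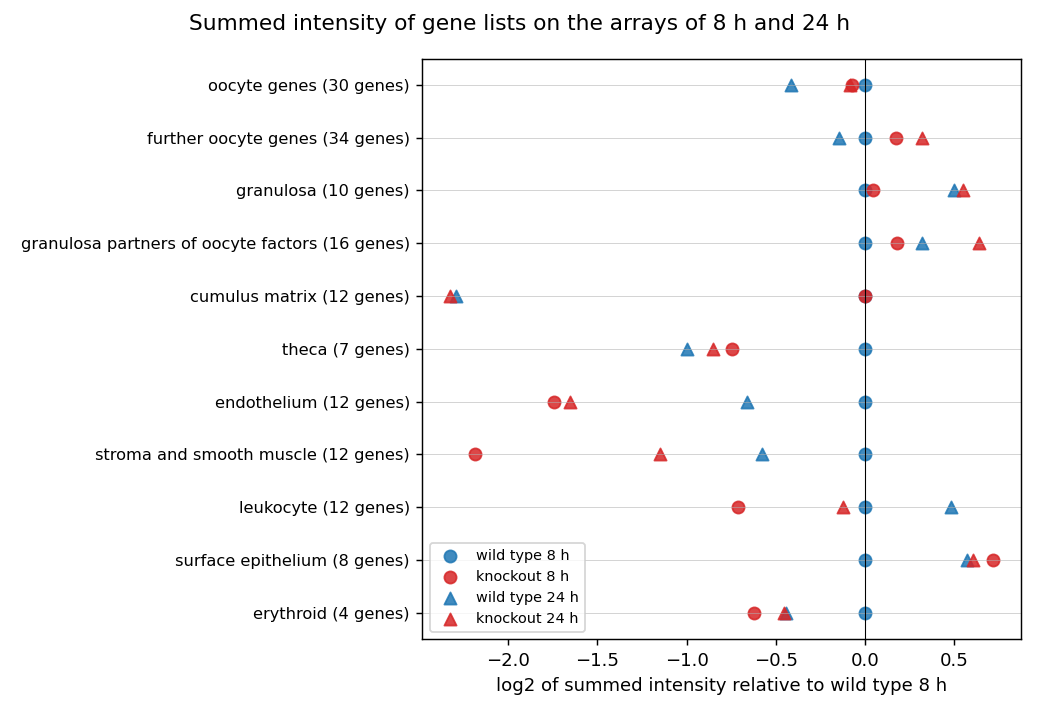
Summed intensity of the oocyte genes and of 10 other gene lists on the 4 arrays of 8 h and 24 h, as log2 relative to wild type at 8 h, with 1 point per array. The oocyte genes span from -0.41 to 0, a narrow range beside the low points of the cumulus matrix list at 24 h and of the endothelial and stromal lists in the knockout at 8 h.

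On the knockout array at 4 h the oocyte genes were high, but unevenly so. As deposited, 26 of 30 were highest on that array, whose scale is higher for genes in general. The deposited median log2 difference of 4 h over 8 h in the knockout was 0.78 over all 15198 genes and 1.32 over the 30. After quantile normalization over the 5 arrays, chosen after the data had been examined, 18 of 30 were highest there. The share of all genes highest on that array was not counted on either scale. On that scale the median log2 difference of 4 h over 8 h in the knockout was 0.65 over 29 genes, against -0.08 over 13747 genes, and 11 of 29 were at least 2-fold higher at 4 h, where the background was 11.9%. Only Omt2b was at least 2-fold lower, at 299 against 669, where the background was 17.9%. Normalized intensities of Zp2 were 1730 at 4 h and 430 at 8 h, those of Nlrp5 1402 and 348, and those of Bcl2l10 3368 and 1270. In contrast, H1foo was 172 and 314, Omt2a 157 and 276 and Zar1 825 and 860. The 29 log2 differences thus ran from -1.16 to 2.01. The second list of oocyte genes had a median of 1.11 on this scale, cumulus matrix genes 0.63, granulosa partners 0.51 and granulosa markers 0.35. Lists of other cells lay below 0, at -0.18 for leukocyte, -0.23 for stromal, -0.52 for theca, -0.57 for surface epithelial, -0.85 for endothelial and -0.89 for erythroid markers. The erythroid value rests on 3 genes. The 3′ to 5′ ratio of the control genes on this array differed too, and its part in these values was not tested.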

How the data were processed

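The authors' deposited values are whole-number intensities of 45101 probe sets on 5 arrays. Per the submitters' processing notes they came from affy with RMA (versions and build: not given in the sources). RMA usually gives log2 values, so the linear scale means log2 was taken here before every comparison, and rounding makes low values coarse. The knockout array at 4 h is not on the scale of the other 4.

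Gene names came from the platform annotation, with symbols brought up to date by Entrez ID through RefSeq (GRCm38.p6), 34958 with 1 symbol, 932 with several and 9211 with none listed. Where a gene had several probe sets, the one with the highest mean log2 value stood for it. Folds against values under the floor are given as "at least". limma 3.58.1 in R 4.3.3 was run with a trend and Benjamini-Hochberg adjustment over genes above the floor on 4 arrays, with 1 residual degree of freedom. The fit was also run on simulated data with noise of SD 0.2 and no interaction of genotype and time. In the real fit that interaction is the only residual, so the simulation does not gauge its calls. The members and lists were chosen with earlier results of these data known. Every member with a value was named, and of each other list at most 4 genes past the size rule were eligible, those of largest difference. Tle6 was named after its values were seen. Of 40 further oocyte genes 34 had values, of 16 granulosa partners 16, of 13 cumulus genes 12, of 12 granulosa markers 10, and of 12 endothelial and of 12 stromal markers all. Leukocyte, theca, surface epithelium and erythroid lists had genotype medians of -0.67, -0.59, 0.22 and -0.20 at 8 h and of -0.36, 0.10, -0.41 and 0.07 at 24 h. These rest on 12, 7, 8 and 3 genes above the floor at 8 h, and on 12, 6, 8 and 3 at 24 h. Alternatives changed the floor, the fold, the scaling, the choice of probe sets and the members. The number of arrays limits the precision.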

Additional observations from a re-analysis of the deposited data

Results flagged for a closer look

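The median log2 genotype difference of the oocyte genes had opposite signs at the 2 times, -0.13 at 8 h and 0.25 at 24 h, with 1 array per group. The median change from 8 h to 24 h was -0.44 in wild-type cells. In knockout cells it was 0.041, and -0.0047 with arrays centred on the median, so it has no stable sign. The 4 medians come from the same 4 arrays, so these are 2 views of a single pattern. The difference was not tested. By itself, 1 array, wild type at 24 h, was lowest for 21 of the 30 genes, a share not set against that of all genes. The second list of oocyte genes had genotype medians of 0.08 at 8 h and 0.48 at 24 h, which are of the same sign.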

How the results depend on the processing

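No paired analysis was possible because each group was 1 array, and for the same reason no replicate could be left out. The median and the summed ratio kept their sign under every alternative run at 8 h, at 24 h and in wild type over time. The median at 8 h ran from -0.19, without the genes also known outside the oocyte, to -0.061, where probe sets of a gene were averaged. The median at 24 h ran from 0.20 to 0.42 and that of the wild-type time change from -0.44 to -0.39. In the knockout over time the median turned to -0.0047 with arrays centred on the median, and the summed ratio to 0.016 with quantile normalization, so it has no direction. Counts of oocyte genes past the rule were small and moved. With a 1.5-fold threshold 8 were higher and 2 lower at 24 h, 10 lower in wild type over time, and 1 higher and 2 lower in the knockout over time. The call of Ddx4 at 24 h was lost, leaving 0, with the floor at the 50th percentile, with low values set to the floor, at 3-fold and with a pseudocount of 16, and that of Sycp3 in wild type over time, leaving 0, at 3-fold and with that pseudocount. Without the genes known outside the oocyte, which left 25 of the 29, 1 was lower at 8 h and 0 in wild type over time. Among genes at or above the floor on all 5 arrays, 0 were lower at 8 h, at 24 h and in wild type over time. This alternative was added after the data were examined, and it leaves out Ddx4 and Sycp3 by their low values. limma called 0 oocyte genes under every alternative, while its calls over all genes for time ranged from 0 to 919 (321 as reported). They were 0 with a floor at the 25th percentile, with no floor and with low values raised, 174 without a trend, 495 with a floor at the 50th percentile, 537 with the mean of probe sets, 788 with quantile normalization and 919 with median centring. The cause of these moves was not tested.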

Other observations

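A probe set annotated to both Oas1d and Oas1e, which gives no value for either alone, was 440 (wild type) and 453 (knockout) at 8 h, 400 and 529 at 24 h, and 2971 on the knockout array at 4 h. Uchl1, an enzyme of ubiquitin recycling known from oocytes and neurons, was 1411 and 2619 at 8 h, and 1239 and 2076 at 24 h, above wild type on both pairs and short of 2-fold each time. It was chosen after its values were seen. Kpna7, an oocyte importin, was 52 and 78 at 8 h, and 56 and 66 at 24 h, and was likewise chosen afterwards.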
